A study of Mus musculus with 6 samples.

Results

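The 33 genes described here are genes of macrophages and other leukocytes, taken from a list of symbols and followed in whole tibialis anterior (TA) muscle of the mouse. They were found by their symbol in the probe annotation of the array. A probe was listed for 32 of the 33, out of 19057 genes with a probe. Cd68, a lysosomal membrane glycoprotein that is widely used to mark macrophages, had no probe with that symbol, so no value can be given for it. Of the 32 genes, 11 averaged at least 7 on the log2 scale over the 6 arrays and were counted as above background, and 21 did not. The 11 are C1qb, C1qc, Fcer1g, Gpnmb, Lgals3, Lyz1, Lyz2, Laptm5, Mrc1, Cd52 and Cd74. They reached 7 on every one of the 6 arrays, with a lowest value of 7.07, so none of them passed through 1 group alone. Their mean signals lay between 7.38 and 10.58.

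Resident macrophages lie between the fibres of skeletal muscle, in the connective tissue sheaths and along vessels. They take up dead cells and debris, digest them in lysosomes, make complement proteins such as C1q, and present antigen on MHC class II molecules. Monocytes enter from the blood after injury, and lymphocytes are few in resting muscle.

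Prox1 is a homeodomain transcription factor that is expressed in slow muscle fibres and scarce in the fast fibres of the TA muscle. Male C57Bl/6J mice, labelled as 3 months old, carried no engineered allele. The TA muscles of the AAV8-Prox1 group (3 muscles) had been injected with an adeno-associated viral vector encoding Prox1, and those of the AAV8-mCherry group (3 muscles) with the same serotype of vector encoding a nuclear mCherry reporter, so both groups had received a needle and a virus. The muscles were taken 4 weeks after injection, and the RNA of each was measured on 1 Illumina Mouse WG-6 v2 BeadChip array. The control vector went into the muscle of the opposite leg, but the labels do not tell which muscles came from 1 mouse. Nor do they say that samples were separate animals. The p-values below therefore set the difference between the groups against the spread between these samples only. The main fit is unpaired, so any differences between mice stay within that spread. The promoter that drove the vectors and the cells that they entered are not given in the labels, and no uninjected muscle was analysed here.

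Each array had a median log2 signal of 6.61, and 10667 to 10672 of 45281 probes per array reached a signal of 7. Across the 10642 brightest probes the arrays correlated at 0.990 to 0.994 within a group and at 0.967 to 0.974 between groups. Both probes for Prox1 itself were at background in every muscle, with log2 signals of 6.42 to 6.59 in the AAV8-Prox1 muscles and of 6.50 to 6.62 in the AAV8-mCherry muscles, so these probes give no check of the labels. The slow fibre genes Tnnc1 and Sln had log2 fold changes of 5.48 and 5.29 (limma adjusted p = 7.83e-06 and 9.5e-06), with every AAV8-Prox1 muscle above every AAV8-mCherry muscle. With 3 arrays in each group, an exact permutation test cannot give a two-sided p below 0.1. A whole muscle was measured, and more or fewer cells of a type cannot be told apart from more or less RNA in each cell.

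Gpnmb and Lgals3, listed here under lysosome, lysozyme and killing, were higher in AAV8-Prox1 muscles. The mannose receptor gene Mrc1 and the complement gene C1qc were also higher, while most genes of the list did not pass. Gpnmb and Lgals3 were 2.97-fold and 2.71-fold higher, and Mrc1 and C1qc were 1.35-fold and 1.27-fold higher. With Cd14, which lay at background, 5 of the 32 measured genes were higher and 0 were lower at an adjusted p under 0.05 in limma's empirical Bayes test, against 5.23% of all measured genes higher and 4.21% lower. At an unadjusted p under 0.05, 13 of the 32 were higher and 0 lower, against 11.6% and 10.4% of all measured genes. Among the 11 genes above background, 4 were higher, against 13.0% of the 6733 genes above background, and 0 were lower, against 11.3%. All 11 had a positive log2 fold change, which held for 52.0% of the genes above background. The median log2 fold change of the 11 was 0.56, beside 0.01 over all genes above background. Over all 32 measured genes the median was 0.08, beside 0.00 over all 19057 genes.

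**Figure D1:**
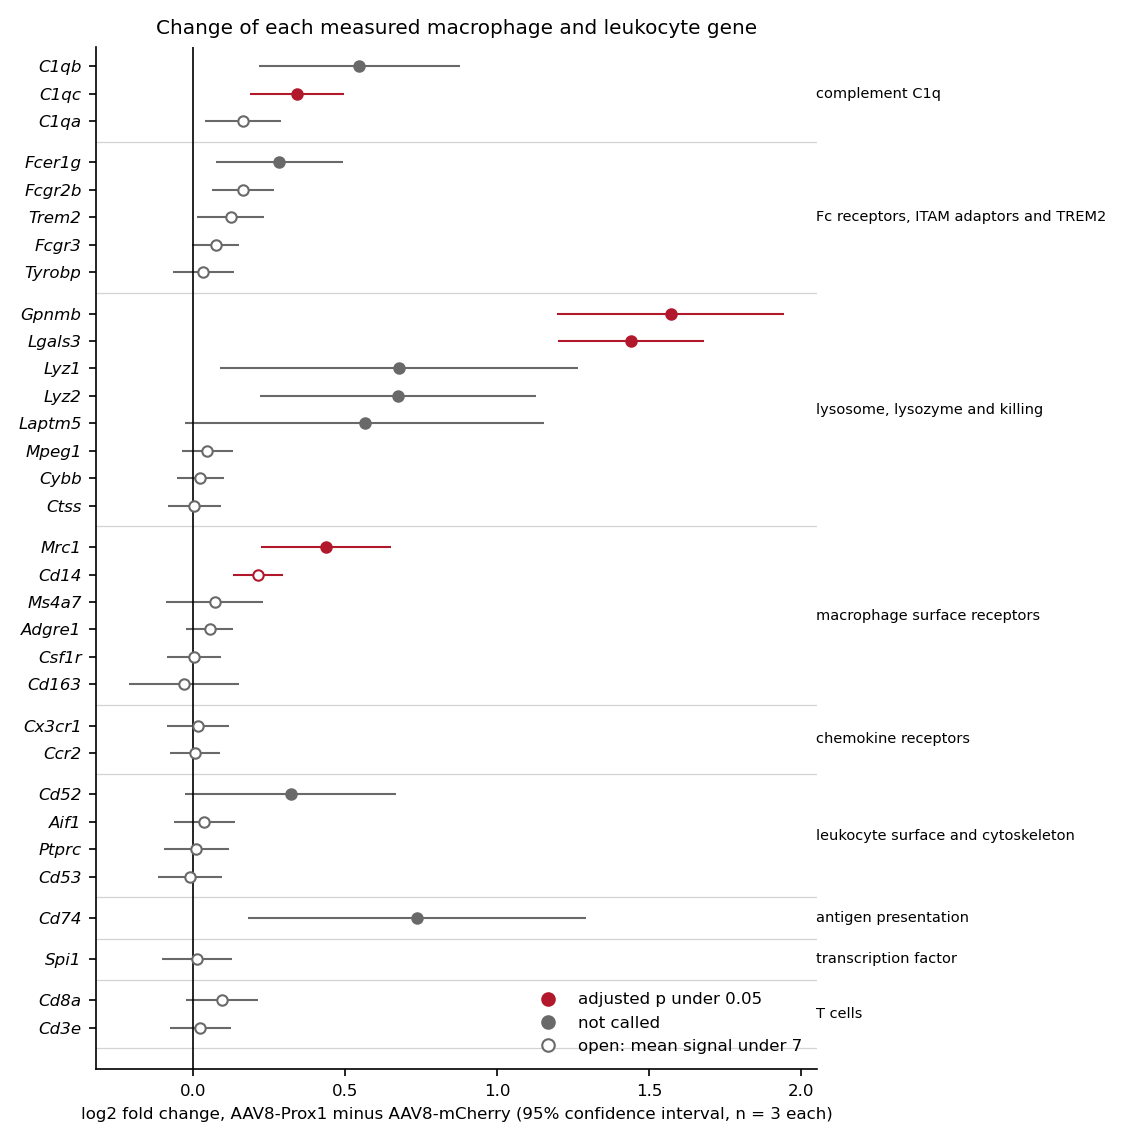
Change of each of the 32 measured genes, grouped by role. The x axis gives the log2 fold change of AAV8-Prox1 minus AAV8-mCherry muscles, bars are 95% confidence intervals from limma (n = 3 each), red marks an adjusted p under 0.05 and open circles mark a mean signal under 7. Gpnmb and Lgals3 stand at 1.57 and 1.44, while the other genes lie between -0.03 and 0.74.

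The plot of changes by role shows 2 genes well apart from the rest, both listed under lysosome, lysozyme and killing. The other 6 measured genes of that role were not called, and the cells that held the RNA of the 2 were not identified. Gpnmb encodes a transmembrane glycoprotein of the endosomes and lysosomes that is abundant in macrophages loaded with lipid or debris. Its log2 signal was 9.07, 8.45 and 8.98 in the AAV8-Prox1 muscles, against 7.44, 7.11 and 7.24 in the AAV8-mCherry muscles. The lowest AAV8-Prox1 muscle stood well above the highest AAV8-mCherry muscle. The mean was 8.83 ± 0.34 in AAV8-Prox1 muscles and 7.26 ± 0.17 in AAV8-mCherry muscles (SD, n = 3 each), which gave a log2 fold change of 1.57 (standard error 0.16, 95% confidence interval 1.20 to 1.94, limma adjusted p = 0.0017). By log2 fold change it ranked 20 from the top among the 6733 genes above background. The other 3 Gpnmb probes were at background, with log2 differences of 0.18, 0.03 and -0.01, so the change rests on 1 probe.

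Lgals3 encodes galectin-3, a lectin that binds β-galactosides, is made in large amounts by activated macrophages and gathers on damaged lysosomes. Its log2 signal was 8.96, 8.75 and 8.99 in AAV8-Prox1 muscles, against 7.61, 7.24 and 7.53 in AAV8-mCherry muscles. As for Gpnmb, the second AAV8-mCherry muscle was the lowest of the 6 and the second AAV8-Prox1 muscle the lowest of its group. The mean was 8.90 ± 0.13 in AAV8-Prox1 muscles and 7.46 ± 0.19 in AAV8-mCherry muscles (SD, n = 3 each), which gave a log2 fold change of 1.44 (standard error 0.10, 95% confidence interval 1.20 to 1.68, limma adjusted p = 0.0004). Its rank by log2 fold change was 32 of 6733. These were the 2 genes of the list that were both called and changed by a log2 fold change of 1 or more, against 1.13% of all genes above background and 0.399% of all measured genes. At a log2 fold change of 0.5 or more they were again the 2 called genes, against 5.09% of all genes above background and 1.85% of all measured genes. They remained called when any 1 array was left out, with adjusted p-values of 0.0007 to 0.0105 for Gpnmb and of 0.0006 to 0.0029 for Lgals3.

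The promoters of the 4 called genes above background are given because these genes differed between the groups. They are windows from 250 bases before to 50 bases after the start of the gene, taken from RefSeq on the mouse build GRCm38.p6, and 9 of the 11 genes above background had an entry. Capitals mark matches to 3 short motifs, searched on both strands: the core GAGGAA of PU.1, the transcription factor that specifies myeloid cells, the E-box CACGTG bound by MITF and TFE factors, and the AP-1 motif TGACTCA. The motifs do not overlap one another in these windows. The windows of the genes that changed most, Gpnmb (chr6:49036268-49036567, plus strand) and Lgals3 (chr14:47373610-47373909, plus strand), read as follows.
Gpnmb: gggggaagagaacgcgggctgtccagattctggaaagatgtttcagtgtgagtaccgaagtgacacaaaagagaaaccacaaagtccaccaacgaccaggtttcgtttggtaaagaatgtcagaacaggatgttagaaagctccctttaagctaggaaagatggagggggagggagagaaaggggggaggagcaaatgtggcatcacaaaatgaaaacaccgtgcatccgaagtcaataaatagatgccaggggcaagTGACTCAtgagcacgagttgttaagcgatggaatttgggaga
Lgals3: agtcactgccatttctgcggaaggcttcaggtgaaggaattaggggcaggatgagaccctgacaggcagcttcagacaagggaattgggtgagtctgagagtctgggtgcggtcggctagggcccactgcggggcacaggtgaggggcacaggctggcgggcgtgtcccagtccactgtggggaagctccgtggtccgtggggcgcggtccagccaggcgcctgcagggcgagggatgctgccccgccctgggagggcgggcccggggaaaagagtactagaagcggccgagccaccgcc
The windows of Mrc1 (chr2:14229164-14229463, plus strand) and C1qc (chr4:136892865-136893164, minus strand), the called genes with smaller changes, read as follows.
Mrc1: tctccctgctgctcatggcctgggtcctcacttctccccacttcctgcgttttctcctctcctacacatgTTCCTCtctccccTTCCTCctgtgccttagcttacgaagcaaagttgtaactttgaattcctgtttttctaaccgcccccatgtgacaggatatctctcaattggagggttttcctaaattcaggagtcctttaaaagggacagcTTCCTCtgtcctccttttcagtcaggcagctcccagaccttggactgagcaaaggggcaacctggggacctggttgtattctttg
C1qc: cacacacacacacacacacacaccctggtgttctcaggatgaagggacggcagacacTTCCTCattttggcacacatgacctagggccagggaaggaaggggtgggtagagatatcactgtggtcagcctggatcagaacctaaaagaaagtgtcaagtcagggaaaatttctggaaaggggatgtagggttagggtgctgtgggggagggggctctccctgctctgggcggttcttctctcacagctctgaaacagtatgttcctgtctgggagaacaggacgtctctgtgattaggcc
The Gpnmb window held 1 AP-1 match, which began 8 bases after the start of the gene, and the Lgals3 window held no match. The PU.1 core was present 3 times in the Mrc1 window and 1 time in that of C1qc. Over the 9 windows, 4 held the PU.1 core (C1qb, C1qc, Laptm5 and Mrc1), 1 held the AP-1 motif and 0 held the E-box. Of 32851 mouse promoter windows of the same length, 28.3% held the PU.1 core, 5.2% the AP-1 motif and 7.15% the E-box. A match is a description of the letters and not a binding site.

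Among the other genes of the lysosome and of killing, the lysozymes showed larger fold changes than most of the list but a wide spread. Lyz2 encodes the lysozyme of macrophages and neutrophils. Its log2 signal was 8.75, 8.55 and 8.66 in AAV8-Prox1 muscles, against 8.41, 7.52 and 8.01 in AAV8-mCherry muscles. The groups did not overlap, yet the AAV8-mCherry muscles lay far apart (SD 0.45, n = 3), and the log2 fold change of 0.67 (standard error 0.19, 95% confidence interval 0.22 to 1.13) did not pass (limma adjusted p = 0.109). Lyz1 encodes the lysozyme of Paneth cells and is a neighbour and near copy of Lyz2. Its log2 signal was 11.18, 10.72 and 10.84 in AAV8-Prox1 muscles, against 10.76, 9.67 and 10.28 in AAV8-mCherry muscles. These groups overlapped, and the log2 fold change of 0.68 (standard error 0.25, 95% confidence interval 0.09 to 1.27) did not pass (limma adjusted p = 0.232). Without AAV8-mCherry replicate 2 it was 0.39.

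The 150 bases nearest the start of each gene of this pair are shown as a description of their likeness there (from 100 bases before to 50 bases after it, RefSeq, GRCm38.p6, minus strand, chr10:117292819-117292968 for Lyz1 and chr10:117282223-117282372 for Lyz2). Capitals mark bases that differ between the genes at the same distance from the start.
Lyz1: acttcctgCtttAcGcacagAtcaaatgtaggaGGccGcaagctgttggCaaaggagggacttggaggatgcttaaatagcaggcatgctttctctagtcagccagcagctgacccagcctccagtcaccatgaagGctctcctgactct
Lyz2: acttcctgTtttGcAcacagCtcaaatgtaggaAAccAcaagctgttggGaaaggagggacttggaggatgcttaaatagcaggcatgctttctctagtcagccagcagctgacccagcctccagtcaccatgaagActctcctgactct
The windows were identical at 141 of 150 bases (94.0%). Most of each window lies before the start of the gene, so this likeness does not tell what the probes detect. The sequences of the probes were not used here, so how far each probe also detects the other transcript is uncertain. The other probes of both genes were at background.

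Laptm5, a lysosomal membrane protein of blood-derived cells, had a log2 signal of 9.63, 9.47 and 9.26 in AAV8-Prox1 muscles, against 9.54, 8.50 and 8.63 in AAV8-mCherry muscles. The first AAV8-mCherry muscle lay inside the range of the AAV8-Prox1 muscles. The log2 fold change was 0.56 (95% confidence interval -0.03 to 1.15, limma adjusted p = 0.347). The remaining genes of this role were at background: Ctss, a lysosomal protease of antigen-presenting cells, Mpeg1, a pore-forming protein of phagosomes, and Cybb, the catalytic subunit of the phagocyte NADPH oxidase. Their log2 differences were 0.00 for Ctss, 0.05 for Mpeg1 and 0.02 for Cybb.

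The C1q complex, which starts the classical complement pathway and is made in tissues mainly by macrophages, is built from 3 chains whose genes lie side by side. C1qc had a log2 signal of 7.63, 7.49 and 7.52 in AAV8-Prox1 muscles, against 7.27, 7.28 and 7.07 in AAV8-mCherry muscles. The difference was small but larger than the spread, with 7.55 ± 0.07 in AAV8-Prox1 muscles and 7.21 ± 0.12 in AAV8-mCherry muscles (SD, n = 3 each). Its log2 fold change was 0.34 (standard error 0.07, 95% confidence interval 0.19 to 0.49, limma adjusted p = 0.0250). The call was lost without AAV8-Prox1 replicate 1 (adjusted p = 0.0812), replicate 2 (0.0566) or replicate 3 (0.0633).

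C1qb had a log2 signal of 8.17, 7.88 and 7.87 in AAV8-Prox1 muscles, against 7.64, 7.11 and 7.53 in AAV8-mCherry muscles. The groups did not overlap. The log2 fold change of 0.55 (standard error 0.14, 95% confidence interval 0.22 to 0.88) missed the threshold, with a limma adjusted p of 0.0736. It passed with a block for the replicate number (adjusted p = 0.0393), with a trend and robust variance (0.0050), with dim probes left out (0.0128) and with bright probes averaged (0.0130). It did not pass with cyclic loess (0.0716), with all probes averaged (0.0709) or in any of the 6 fits with 1 array left out (0.0541 to 0.205). C1qa was at background in every muscle, with 6.82, 6.88 and 6.86 in AAV8-Prox1 muscles against 6.80, 6.67 and 6.60 in AAV8-mCherry muscles (limma adjusted p = 0.167), so the chains could not all be followed.

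**Figure D2:**
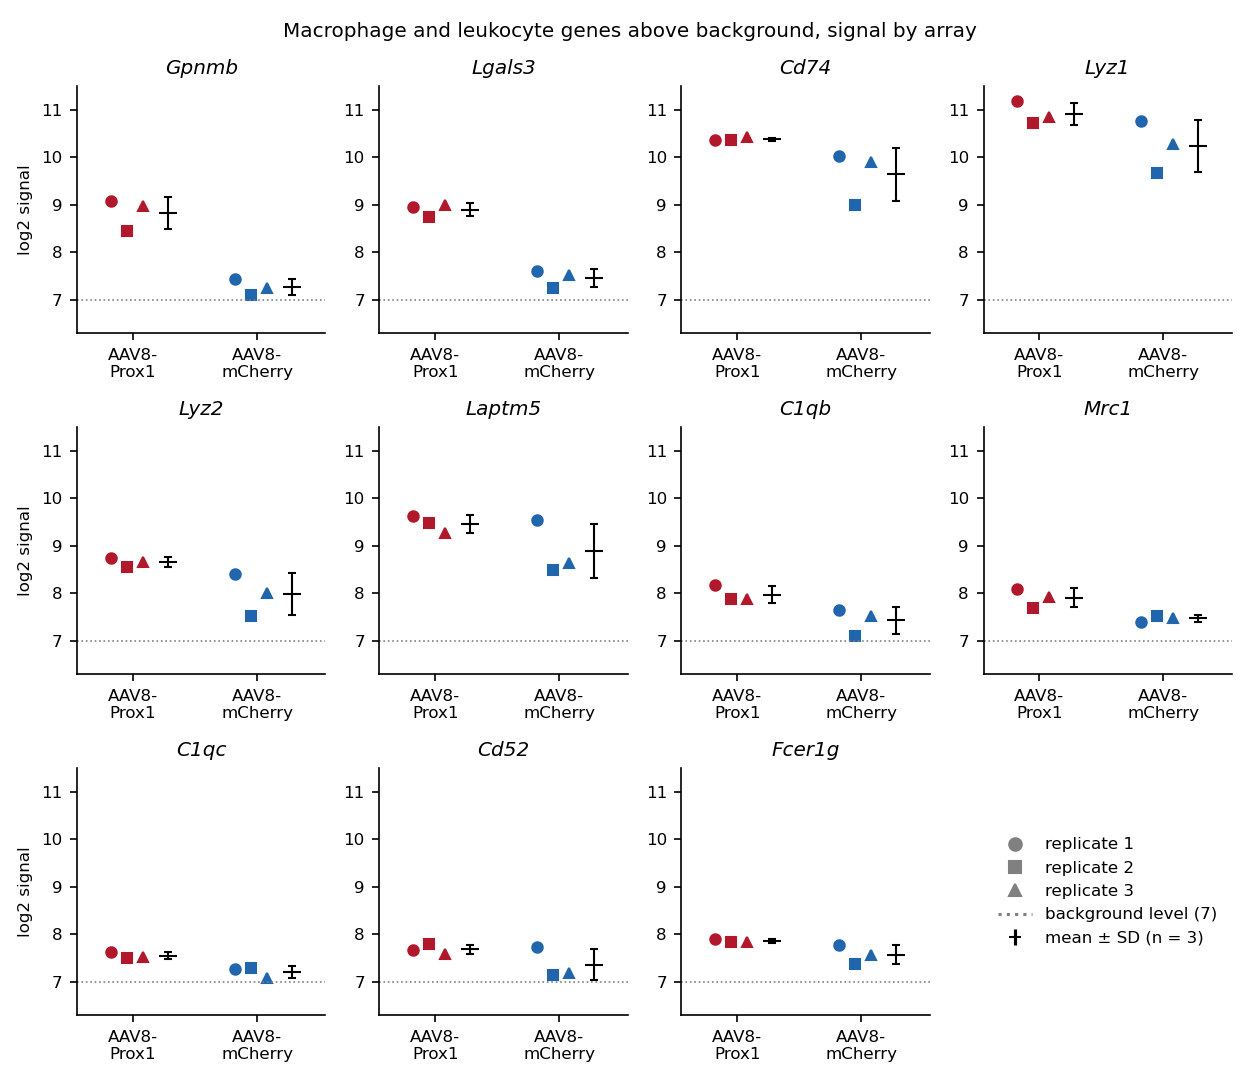
Log2 signal of the 11 genes above background in each muscle, AAV8-Prox1 (red) and AAV8-mCherry (blue). Marker shapes give the replicate, black bars give the mean ± SD (n = 3) and the dotted line is the background level of 7. In 8 of the 11 panels every red point lies above every blue point, and Lyz1, Laptm5 and Cd52 are the panels in which they overlap.

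The plot of signal by array shows that the groups were apart for 8 of the 11 genes, against 22.5% of all genes above background in the same direction. With 3 arrays in each group, any gene whose groups do not overlap has an exact two-sided permutation p of 0.1, the smallest possible. That test therefore adds nothing for these 8. Mrc1 was among them. It encodes the mannose receptor CD206, an endocytic receptor of resident and repair-phase macrophages. Its log2 signal was 8.09, 7.70 and 7.93 in AAV8-Prox1 muscles, against 7.40, 7.53 and 7.48 in AAV8-mCherry muscles. The AAV8-mCherry muscles lay close together for this gene, with a mean of 7.47 ± 0.07, and the AAV8-Prox1 mean was 7.91 ± 0.20 (SD, n = 3 each). The log2 fold change was 0.44 (standard error 0.09, 95% confidence interval 0.22 to 0.65, limma adjusted p = 0.0341). With 1 array left out it passed in 1 of 6 fits. The adjusted p was 0.0646 without AAV8-Prox1 replicate 1, 0.103 without AAV8-Prox1 replicate 3, and 0.102, 0.0660 and 0.10 without AAV8-mCherry replicates 1, 2 and 3. With a block for the replicate number it was 0.107.

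The other surface receptors of macrophages were at background. Cd14, the co-receptor that hands lipopolysaccharide to TLR4, had 6.92, 6.94 and 6.88 in AAV8-Prox1 muscles against 6.73, 6.67 and 6.70 in AAV8-mCherry muscles. It was called higher (log2 difference 0.21, limma adjusted p = 0.0130), but no fold is given because every array was under 7. The call was lost without AAV8-Prox1 replicate 2 (adjusted p = 0.0546) and with the replicate block (0.0560). Adgre1 (an adhesion receptor that is the classical surface marker of mouse macrophages), Csf1r (the receptor for the macrophage growth factor CSF1), Cd163 (the haemoglobin scavenger receptor) and Ms4a7 had log2 differences of 0.05, 0.00, -0.03 and 0.07. For these genes the arrays give no level in either group, so a difference was not detectable and its absence is not shown. The defining markers of macrophages were therefore measured in part only: C1qc was above background, Adgre1 and Csf1r were not, and Cd68 had no probe.

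The Fc receptors and their adaptors bind antibody-coated particles and signal through ITAM motifs. Fcer1g encodes the common γ chain of these receptors, and its log2 signal was 7.90, 7.84 and 7.83 in AAV8-Prox1 muscles, against 7.77, 7.38 and 7.57 in AAV8-mCherry muscles. The groups did not overlap, though their nearest arrays were close. The log2 fold change of 0.28 (standard error 0.09, 95% confidence interval 0.08 to 0.49) did not pass (limma adjusted p = 0.143). The other genes of this role were at background. Fcgr2b (the inhibitory receptor), Fcgr3 (an activating receptor), Trem2 (a lipid receptor of macrophages) and Tyrobp (the adaptor DAP12) had log2 differences of 0.16, 0.07, 0.12 and 0.03, with adjusted p-values of 0.0812, 0.340, 0.247 and 0.833.

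Cd74 encodes the invariant chain, which guides MHC class II molecules to the endosomes. Its log2 signal was 10.36, 10.36 and 10.42 in AAV8-Prox1 muscles, against 10.03, 9.0 and 9.90 in AAV8-mCherry muscles. The AAV8-Prox1 muscles were nearly equal, with an SD of 0.03, while AAV8-mCherry replicate 2 lay well below the other two of its group. The log2 fold change was 0.74 (standard error 0.24, 95% confidence interval 0.18 to 1.29, limma adjusted p = 0.157). The other Cd74 probes above background had log2 fold changes of 0.75 and 0.35, with adjusted p-values of 0.146 and 0.169. Without AAV8-mCherry replicate 2 the log2 fold change of the brightest probe was 0.42, and it then passed (adjusted p = 0.0080).

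Cd52, a small glycoprotein on the surface of lymphocytes and monocytes, had a log2 signal of 7.66, 7.79 and 7.59 in AAV8-Prox1 muscles, against 7.74, 7.15 and 7.19 in AAV8-mCherry muscles. The groups overlapped through the first AAV8-mCherry muscle, and the log2 fold change was 0.32 (95% confidence interval -0.03 to 0.67, limma adjusted p = 0.368). The genes shared by most leukocytes were at background, namely Ptprc (CD45, the phosphatase on nearly all white blood cells), Cd53 (a tetraspanin) and Aif1 (the actin-binding protein IBA1), with log2 differences of 0.01, -0.01 and 0.04. The chemokine receptors of monocytes, Ccr2 and Cx3cr1, were at 0.01 and 0.02, and Spi1, which encodes PU.1, was at 0.01. The T cell genes Cd3e, a chain of the T cell receptor complex, and Cd8a, the co-receptor of cytotoxic cells, were at 0.02 and 0.09. Over all 21 genes at background the array values lay between 6.38 and 6.99.

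**Figure D3:**
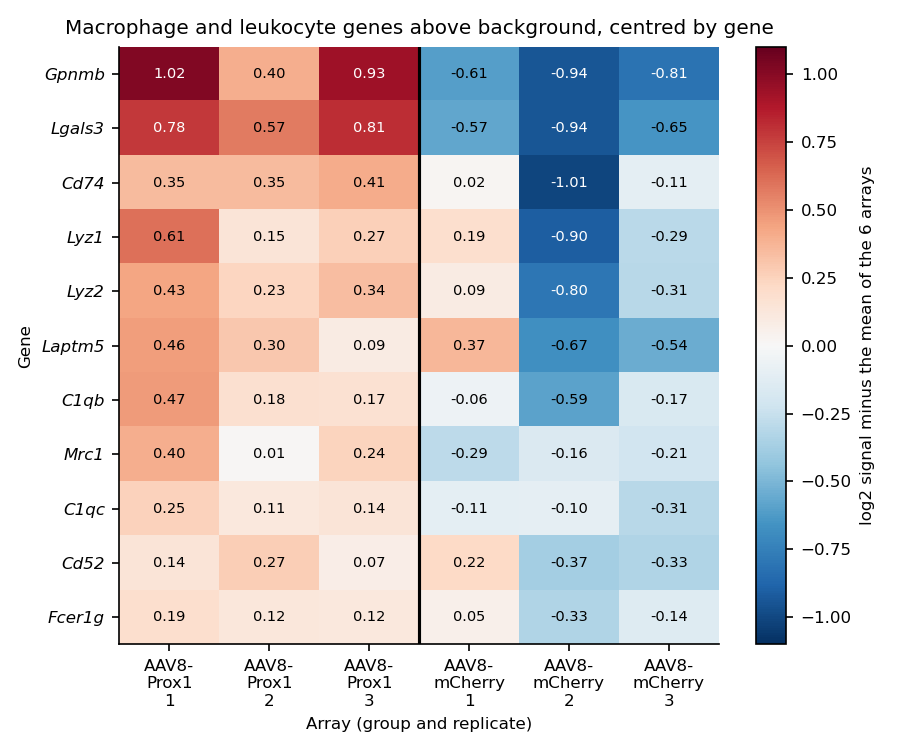
Log2 signal of each of the 11 genes in each array minus that gene's mean over the 6 arrays, with AAV8-Prox1 arrays at the left and AAV8-mCherry arrays at the right of the black line. The column of AAV8-mCherry replicate 2 holds the lowest value in 9 of the 11 genes, and Gpnmb and Lgals3 are positive in every AAV8-Prox1 array and negative in every AAV8-mCherry array.

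The plot of centred signals shows how the genes varied together within a group. AAV8-Prox1 replicate 1 was the highest of the 6 arrays in 8 of the 11 genes, against 18.9% of all genes above background. AAV8-mCherry replicate 2 was the lowest of the 6 in 9 of the 11, against 20.8% of all genes above background, and replicate 1 was the highest of its group in 9 of the 11, against 33.9%. Mrc1 and C1qc were the 2 genes that did not follow this order. The genes also spread more in AAV8-mCherry muscles. The median SD was 0.13 in AAV8-Prox1 muscles and 0.28 in AAV8-mCherry muscles, where it was 0.10 and 0.10 over all genes above background.

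Which genes were called changed with the array left out. Without AAV8-mCherry replicate 1, 9 genes were called (C1qa, C1qc, Fcer1g, Gpnmb, Lgals3, Lyz2, Laptm5, Cd14 and Cd52), against 4.25% of all genes higher in that fit, and the median log2 fold change of the 11 was 0.89. Without AAV8-mCherry replicate 2, 5 were called, with Cd74 in place of Mrc1, against 4.19% of all genes, and the median was 0.39. In that fit the log2 fold changes of Lyz2, Laptm5 and Fcer1g were 0.44, 0.37 and 0.19. Without any 1 of the AAV8-Prox1 arrays 3 were called, against 3.67% to 4.15% of all genes, and without AAV8-mCherry replicate 3 there were 4, against 3.91%. Gpnmb and Lgals3 were called in each of these 6 fits.

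**Figure D4:**
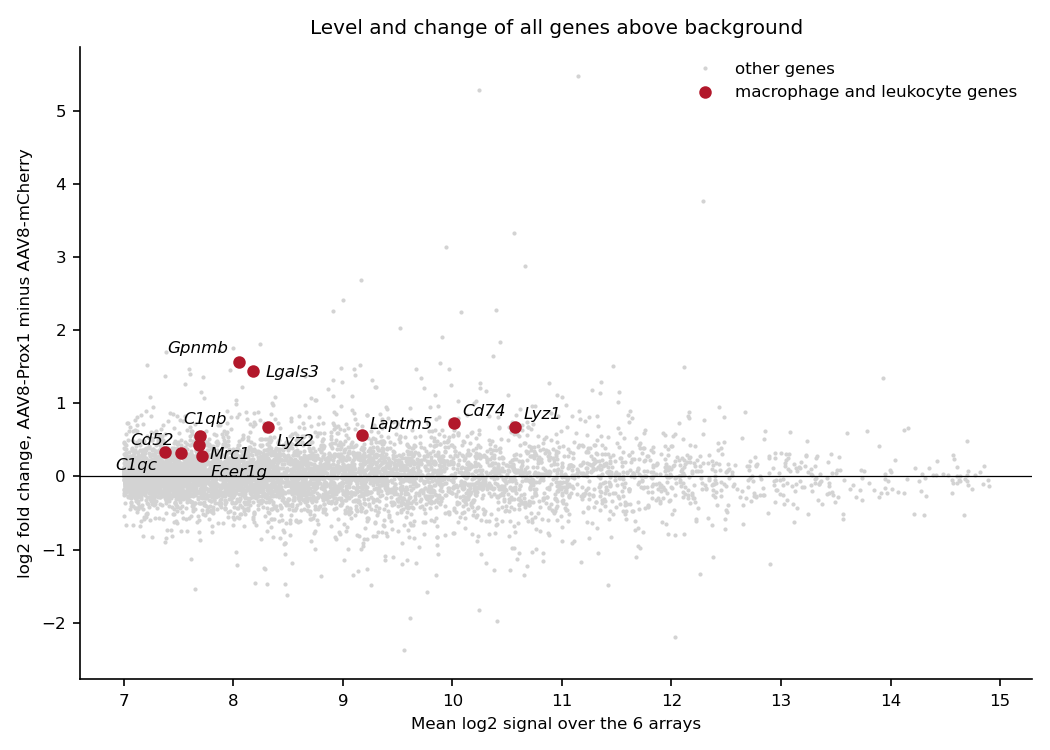
Mean log2 signal over the 6 arrays (x axis) and log2 fold change of AAV8-Prox1 minus AAV8-mCherry muscles (y axis) of the 6733 genes above background, with the 11 macrophage and leukocyte genes in red. All 11 lie above 0, and Gpnmb and Lgals3 rank 20 and 32 by log2 fold change.

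In the plot of level against change, the genes of the list sit on the positive side at dim and bright signals alike. Ranked by log2 fold change among the 6733 genes above background, Cd74 was 167, Lyz1 199, Lyz2 204, Laptm5 306 and C1qb 325. Mrc1 was 498, C1qc 764, Cd52 834 and Fcer1g 998. The lowest of the 11 thus stood at 14.8% from the top of all genes above background.

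Few genes in a list of further myeloid genes were called. Of its 52 measured genes 10 were above background, 2 were higher and 1 was lower, against 5.23% and 4.21% of all measured genes. At an unadjusted p under 0.05, 6 of the 52 were higher and 2 lower, against 11.6% and 10.4% of all measured genes. The median log2 fold change of the 10 was 0.00. Slc11a1, the metal transporter NRAMP1 of phagosomes, had 8.56, 8.77 and 8.57 in AAV8-Prox1 muscles, against 7.94, 7.81 and 7.82 in AAV8-mCherry muscles (log2 fold change 0.78, limma adjusted p = 0.0008). With all its probes averaged the log2 fold change was 0.37 (limma adjusted p = 0.0008). Axl, a receptor kinase for the uptake of dying cells that fibroblasts also express, was higher by a log2 fold change of 0.54 (limma adjusted p = 0.0129), with 9.96, 9.81 and 9.73 in AAV8-Prox1 muscles and 9.48, 9.20 and 9.20 in AAV8-mCherry muscles. That call was lost without AAV8-mCherry replicate 3 (adjusted p = 0.0504). With all Axl probes averaged the log2 fold change was 0.285 (limma adjusted p = 0.0391). Irf5, a transcription factor of inflammatory macrophages, was the gene called lower, and it counted as above background through the AAV8-mCherry muscles alone. Its signal was at background in the AAV8-Prox1 muscles, at 6.94, 6.96 and 6.98, against 7.79, 7.66 and 7.96 in AAV8-mCherry muscles, which is at least 1.75-fold lower (limma adjusted p = 0.0007). Apoe, an apolipoprotein that macrophages secrete, had a log2 fold change of 0.20 (limma adjusted p = 0.124), and it passed without AAV8-mCherry replicate 3 (0.0152).

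The complement pathway beyond C1q had 17 measured genes, of which 6 were above background. The median log2 fold change of the 6 was 0.14. In limma 2 of the 17 were higher and 0 were lower, against 5.23% and 4.21% of all measured genes. Over all genes above background the shares were 13.0% and 11.3%. At an unadjusted p under 0.05, 3 of the 17 were higher and 1 lower, against 11.6% and 10.4% of all measured genes. The 2 were inhibitors. Cd59a, a membrane protein that blocks the membrane attack complex, had a log2 fold change of 0.30 (limma adjusted p = 0.0057, and 0.0707 with a trend and robust variance), and Serping1, the inhibitor of the proteases C1r and C1s, had one of 0.48 (limma adjusted p = 0.0250). Serping1 was lost without AAV8-Prox1 replicate 1 (adjusted p = 0.0537) or replicate 3 (0.0646), and without AAV8-mCherry replicate 2 (0.0653) or replicate 3 (0.0798). Masp1, a protease of the lectin pathway, and C2, a protease of the classical pathway, had log2 fold changes of -0.43 and 0.13 (limma adjusted p = 0.0675 and 0.680). Masp1 passed as lower with the replicate block (0.0080), with a trend and robust variance (0.0076), with dim probes left out (0.0170), with all or bright probes averaged (0.0136 and 0.0016) and without AAV8-Prox1 replicate 2 (0.0406).

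Of 23 measured growth factors, chemokines and chemokine receptors for leukocytes, 6 were above background, with a median log2 fold change of 0.11. In limma 0 of the 23 were higher and 1 was lower, against 5.23% and 4.21% of all measured genes. Over all genes above background the shares were 13.0% and 11.3%. At an unadjusted p under 0.05, 6 of the 23 were higher and 2 lower, against 11.6% and 10.4% of all measured genes. Cxcl12, the chemokine that holds haematopoietic cells in their niches, was at 10.68, 10.71 and 10.77 in AAV8-Prox1 muscles, against 11.37, 10.94 and 11.49 in AAV8-mCherry muscles. Its log2 fold change of -0.55 passed narrowly (limma adjusted p = 0.0498). The call was lost with the replicate block (0.0677) and in 5 of the 6 fits with 1 array left out, with a highest adjusted p of 0.152. With all its probes averaged, the log2 fold change was -0.26 and did not pass (limma adjusted p = 0.0613). Cxcl14, Ccl9 and Cxcl16, chemokines that attract or bind myeloid cells and lymphocytes, had log2 fold changes of 0.29, 0.32 and 0.11 and did not pass (limma adjusted p = 0.136, 0.317 and 0.558). Ccl9 passed with the replicate block (0.0230), and its log2 fold change was 0.19 without AAV8-Prox1 replicate 1. Cxcl14 passed without AAV8-Prox1 replicate 2 (0.0251) and with bright probes averaged (0.0498). The log2 fold change of Cxcl16 was 0.07 without AAV8-Prox1 replicate 2 and 0.04 without AAV8-mCherry replicate 2.

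**Figure D5:**
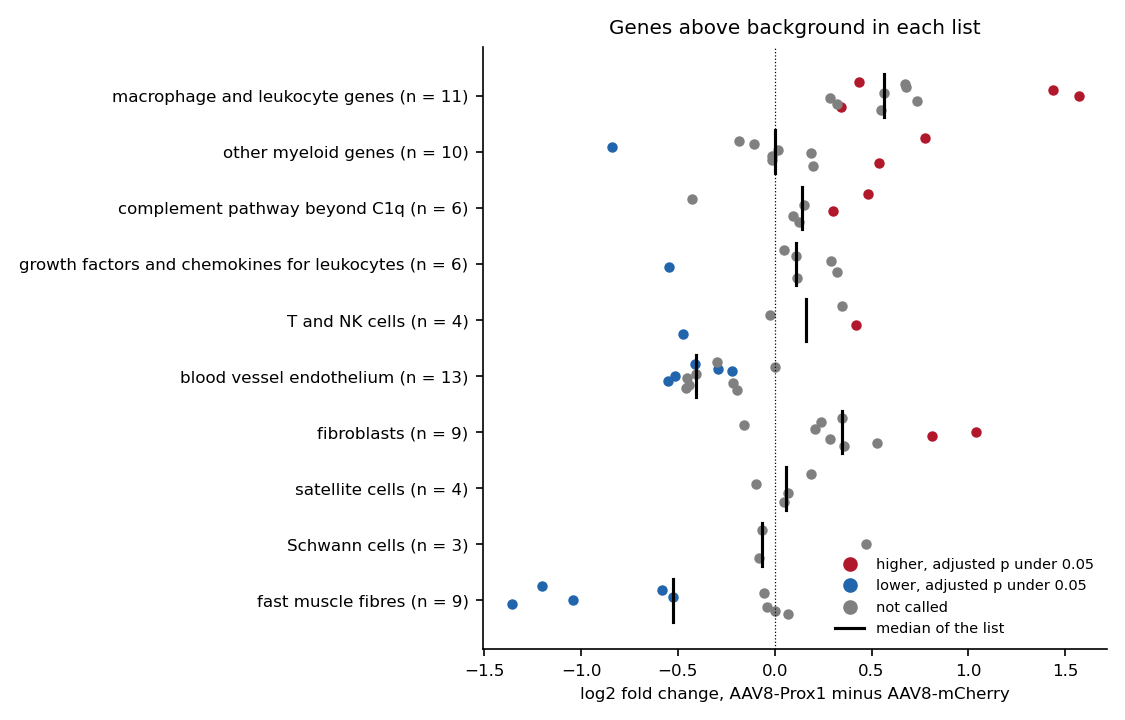
Log2 fold change of AAV8-Prox1 minus AAV8-mCherry muscles (x axis) for the genes above background of each list (rows), where a point is a gene and the black line is the median. Red and blue mark genes higher and lower at an adjusted p under 0.05. The medians were 0.56 for the macrophage and leukocyte genes, 0.35 for fibroblasts, -0.41 for blood vessel endothelium and -0.52 for fast muscle fibres.

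The plot of lists sets these genes beside markers of the other cells of muscle. Markers of neutrophils (13 measured), B cells (8), mast cells (8), dendritic cells (9) and fat cells (6) were all at background, where 1 dendritic cell gene, Zbtb46, was called lower. Of the markers of red blood cells (2 above background), satellite cells (4) and Schwann cells (3), 0 were called in limma, and at an unadjusted p under 0.05 these genes above background held 1 satellite cell gene and 1 Schwann cell gene that were higher, and 0 that were lower. Of 17 measured T and NK cell genes 4 were above background, and of these Foxp3, the transcription factor of regulatory T cells, was higher (log2 fold change 0.42, limma adjusted p = 0.0128) while Cd8b1, a chain of the cytotoxic co-receptor, was lower (-0.47, limma adjusted p = 0.0153), with Cd3e and Cd8a at background in every muscle. Both calls were lost with the replicate block (adjusted p = 0.0519 and 0.0778), and that of Cd8b1 also without AAV8-Prox1 replicate 1 (0.0509) and with all probes averaged (0.0910). Foxp3 stayed called with all its probes averaged, at a log2 fold change of 0.16 (limma adjusted p = 0.0315). Over all genes above background, 13.0% were higher and 11.3% lower.

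Some markers of 3 tissue cell types differed between the groups. Of 12 measured fibroblast markers 9 were above background, and 2 of the 9 were higher, against 13.0% of all genes above background. These were Mfap5, a microfibril protein (log2 fold change 1.04, limma adjusted p = 0.0033), and Lum, a collagen-binding proteoglycan (0.81, limma adjusted p = 0.0173). Lum was lost without AAV8-Prox1 replicate 2 (0.0583) or replicate 3 (0.0589), and its log2 fold change was 0.465 with all its probes averaged (limma adjusted p = 0.0226). The other 7 did not pass, and Pdgfrb, a receptor of mural cells and fibroblasts, had a log2 fold change of -0.16, with every AAV8-Prox1 array below every AAV8-mCherry array. Their signal, turned from log2 to linear and summed over the 9, ranged from 6025 to 7135 in AAV8-Prox1 muscles and from 3825 to 5313 in AAV8-mCherry muscles, and Dcn, a proteoglycan whose log2 fold change of 0.53 did not pass (limma adjusted p = 0.0695), made up 56.4% to 61.9% of that sum in AAV8-Prox1 muscles and 58.0% to 59.1% in AAV8-mCherry muscles. The fibroblast markers also followed the same order of control muscles. Their median deviations from the AAV8-mCherry mean were 0.20, -0.18 and -0.01 in replicates 1, 2 and 3, where the macrophage and leukocyte genes had 0.21, -0.22 and 0.01. The further myeloid (0.06, -0.12 and 0.01), complement, chemokine and satellite cell genes above background also had replicate 1 highest and replicate 2 lowest. The T and NK cell, endothelial, Schwann cell and fast fibre genes had replicate 3 highest and replicate 2 lowest. The order was thus not particular to fibroblasts. Of 13 endothelial markers above background 5 were lower, against 11.3% of all genes above background. The count was 2 without AAV8-Prox1 replicate 1 or AAV8-mCherry replicate 3, and 3 without AAV8-Prox1 replicate 3. In these fits 555, 590 and 560 of all genes were lower, against 802 with every array. Their summed signal was 8417 to 9805 in AAV8-Prox1 muscles and 11101 to 13441 in AAV8-mCherry muscles. Of 9 fast fibre genes 5 were lower, against the same 11.3%, and 3 without any 1 of the AAV8-mCherry arrays. Without an AAV8-mCherry array, 590 to 681 of all genes were lower, against 802. Acta1, Ckm, Pvalb and Atp2a1 lay between -0.05 and 0.07. The part of these cell types in the levels of the macrophage and leukocyte genes was not tested.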

How the data were processed

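Total RNA was isolated from 6 TA muscles (3 of the AAV8-Prox1 group and 3 of the AAV8-mCherry group) and hybridized to Illumina BeadChips. The authors used GenomeStudio for quality control and Chipster for quantile normalization, and the log2 values as deposited, rounded to 2 decimals, were used here. No genome build or background correction is given in the sources used here. Quantile normalization gives the arrays the same distribution, so a shift of all genes cannot be seen. A second deposited table has 12 columns of raw signals and detection p-values whose names match no sample, and it was not used. A log2 signal of 7 stood in for a detection p-value.

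Of 45281 probes, 34885 carry 1 gene symbol, 18 several and 10378 none. All probes were fitted in R 4.3.3 with lmFit and eBayes of limma 3.58.1, with Benjamini-Hochberg adjustment over all of them and a threshold of 0.05. Each gene was read from its brightest probe, judged by the mean over the 6 arrays, and called "apart" if all arrays of 1 group exceeded all of the other. The fit was tested on simulated data. Permutation tests used scipy 1.17.1. Folds against a group under 7 on all arrays are lower bounds against that level.

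The genes, the 3 lists of further pathway genes and the 12 lists of cell type markers were chosen with earlier results of these data known, and are no independent evidence of direction. All 33 genes are accounted for. Those above background are named with their values, and up to 4 genes above background with the smallest adjusted p are named from each list of further genes. The array values of Lyz1, Laptm5 and Cd52 and the values of single cell type markers are given beyond that rule. Of 259 symbols in the lists, 4 were updated through synonyms and 24 had no probe. The replicate numbers were not read as pairs. Promoters came from a RefSeq table, and Cd74 and Cd52 had no entry in it. The alternatives are the replicate block, a variance trend with robust eBayes, cyclic loess, centring on bright probes, a filter on dim probes, 2 ways to average probes, a background level of 7.5, a minimum log2 fold change of 0.5 and leaving out each array.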

Additional observations from a re-analysis of the deposited data

How the results depend on the processing

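Among the macrophage and leukocyte genes, 5 were called higher. The count was 8 when probes that did not reach a log2 signal of 7 in at least 3 arrays were left out. It was also 8 when the bright probes of a gene were averaged. Both settings fit a smaller set of features, so the variances that limma shares between features and the adjustment both change. Which of these moved the calls was not tested. The 8 were C1qb, C1qc, Gpnmb, Lgals3, Lyz2, Lyz1, Mrc1 and Cd74. In these settings 1054 and 1004 genes were called higher, which is 15.3% and 14.9% of the genes that were left, not of all measured genes. The 21 genes of the list at background were among those left out. A minimum log2 fold change of 0.5 left 2 (Gpnmb and Lgals3), and leaving out 1 array gave 3 to 9. The median log2 fold change of the 11 genes above background lay between 0.39 and 0.89 with 1 array left out. No gene of the list was called lower in any setting that was run, and none of the named genes, counts and medians that were rerun changed its direction.

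Whether equal replicate numbers mark muscles of 1 mouse is not known. The deviations from the group means of arrays with equal numbers correlated at -0.18, 0.05 and -0.12 over bright probes. With 3 arrays in each group, these values cannot settle the pairing. With the replicate number as a block, 4 genes of the list were called (C1qb, C1qc, Gpnmb and Lgals3), beside 3.78% of all genes. Growth factors and chemokines called higher were 1 with the replicate block, 1 with bright probes averaged and 0 to 1 with 1 array left out, against 0. Complement genes beyond C1q called higher were 0 at the minimum log2 fold change and 1 to 3 with 1 array left out, against 2, and further myeloid genes were 2 to 3, against 2. Of all genes, 3.78% were higher with the block, 1.85% at the minimum log2 fold change and 3.67% to 4.25% with 1 array left out, against 5.23%. With bright probes averaged it was 14.9% of the genes that were left. Over all genes, 352 were higher and 280 lower at the minimum log2 fold change, against 997 and 802, and 700 to 809 were higher and 546 to 681 lower with 1 array left out. Foxp3, Cd8b1, Mfap5, Lum and the counts of fibroblast, endothelial and fast fibre genes were put through the same settings after seeing the data. Fibroblast markers called higher were 4 with dim probes left out, with bright probes averaged or with the replicate block, against 2. In these settings 15.3% and 14.9% of the genes that were left and 3.78% of all genes were higher, against 5.23%. Endothelial markers called lower were 8 in the first pair of these settings, against 5, where 910 and 945 genes were lower, against 802. Fast fibre genes called lower were 3 with the block, against 5, where 559 genes were lower, against 802. The cause of these changes was not tested further. Signal over background limits 21 of the 32 genes, for which neither a level nor a fold can be given, and 3 arrays in each group limit the precision of the rest.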
